A study of Mus musculus with 40 samples.

Results

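The respiratory chain was followed by complex in mouse embryos exposed to an alkylating drug in culture. The members are the probes that map to a single gene symbol starting with Nduf (complex I), Sdh and a letter from a to d (complex II), Uqcr (complex III), Cox and a digit (complex IV and its assembly) or Atp5 (complex V), together with Cyc1 of complex III. They came to 66 genes of the 6970 with a name on the arrays, read by 92 probes, 38 on array design 1 and 54 on array design 2. Complex I had 26 genes, complex II 4, complex III 6, complex IV 14 and complex V 16, and 8 of the 66 genes had probes on both designs. Within this rule the symbols alone decided which probes are members. The rule itself was chosen with earlier results of these data known. Another 5 probes carried a member symbol beside that of a second gene and were left out.

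All 40 arrays were 2-colour arrays that set total RNA of treated embryos directly against that of control embryos. Treated embryos were kept in culture for 5 h at 37 °C in the presence of 40 µM 4-hydroperoxycyclophosphamide, a form of cyclophosphamide that needs no activation by the liver, and control embryos were kept at 37 °C without it. The sources used here do not give the strain, the stage or the number of embryos behind an RNA sample. Every array design had 20 arrays from 5 replicates, with treated embryos in channel 1 on one slide and in channel 2 on another, and 2 readouts of each slide. Nothing in the labels says that replicates came from separate cultures, so each p-value reflects the spread among these samples, part or all of which could be technical. The number of arrays limits the precision.

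Complexes I and II feed electrons from NADH and from succinate into ubiquinone, complex III hands them on to cytochrome c, and complex IV passes them to oxygen. Complexes I, III and IV move protons across the inner mitochondrial membrane, and complex V, the ATP synthase, lets them return through its membrane part Fo and makes ATP in its head F1. Most subunits come from nuclear genes, and every member here is a nuclear gene, while a few core subunits are made from mitochondrial DNA and are outside the rule.

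Values are log2 ratios of treated over control, with each array set to a median of 0, so a value states how far a probe lay from the median probe of its array. The direction rests on reading the ratio as channel 1 over channel 2, which the sources used here do not state. Read in this way, the p53 target Ccng1 was at 2.65 ± 0.37 (SD, n = 5) on array design 1 and 1.39 ± 0.40 on array design 2, and Mdm2, the ubiquitin ligase that p53 induces, at 0.83 ± 0.30. The direction is therefore called likely and no more. Single arrays of one orientation from different replicates correlated over all probes at values down to −0.31 on array design 1 and −0.54 on array design 2, so single arrays do not settle a direction either. With both orientations combined, the replicates correlated at 0.30 to 0.73 and at 0.35 to 0.69. With the sign turned, each member described here as higher would be lower by the same amount, and all counts would change sides.

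In treated embryos 13 of 29 probes of structural subunits on array design 1 and 39 of 49 on array design 2 rose relative to the median gene, by small amounts. The calls on array design 2 came from all 5 complexes. Complex II had none on its 3 probes of array design 1, and 1 of the 5 core subunits of complex I was called over both designs. Such small counts lie near the shares of all probes called, given below, and are no result about these groups. With a dye-profile curve removed, 1 and 6 member probes were called. On array design 2, 39 of 54 member probes rose and 0 fell at an adjusted p under 0.05 in limma, where 19.8% of all probes were called higher and 8.07% lower. On array design 1, 15 of 38 rose and 0 fell, against 10.2% and 5.77% of all probes. At an unadjusted p under 0.05 in limma, 0 members were lower on either design. The median member stood at 0.21 on array design 2 and 0.18 on array design 1, and the median of all probes at 0.017 and −0.0024. Called members lay between 0.15 and 0.39 on the log2 scale, or 1.11-fold to 1.31-fold. In these embryo samples a change in the share of cells cannot be told apart from a change in RNA per cell.

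Only the position relative to other genes is given by these values. Without the centring of arrays, the median of all probes lay at −0.32 on array design 1 and −0.41 on array design 2, and the member medians at −0.13 and −0.22. On that scale 0 members were called higher in limma on either design, against 0.781% and 0.276% of all probes, and 15 and 28 were called lower, where 82.5% and 87.3% of all probes were lower. Centring moves all probes of an array by the same amount. The position of the members relative to the median probe therefore could not differ between the scales, and their agreement is no further support. The sign of the member ratios depended on the centring.

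Replicates did not contribute evenly. The member median on array design 1 was 0.10, 0.12, 0.15, 0.27 and 0.25 in replicates 1 to 5, so that replicates 4 and 5 were the highest. On array design 2 it was 0.30, 0.17, 0.17, 0.20 and 0.18, with replicate 1 the highest and the other 4 close together. All 5 replicates were above 0 for 17 of 38 member probes on array design 1 and for 38 of 54 on array design 2, against 13% and 20.1% of all probes. Replicate 4 on array design 1 rests on 3 readouts, because a readout with many missing values was left out. Without this replicate the calls on array design 1 went from 15 to 1, against 1.04% of all probes, and with the poor readout kept they also came to 1, where 0.638% of all probes were called higher. Of the 38 member probes 10 had no value in that readout, and 8 of the 15 called ones were among these. Over all 7680 probes 786 (10.2%) had no value in it. With the readout kept the means of the 8 called ones were the same. For Ndufc2, which is among them, the adjusted p went from 0.0217 to 0.0516 (limma).

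**Figure D1:**
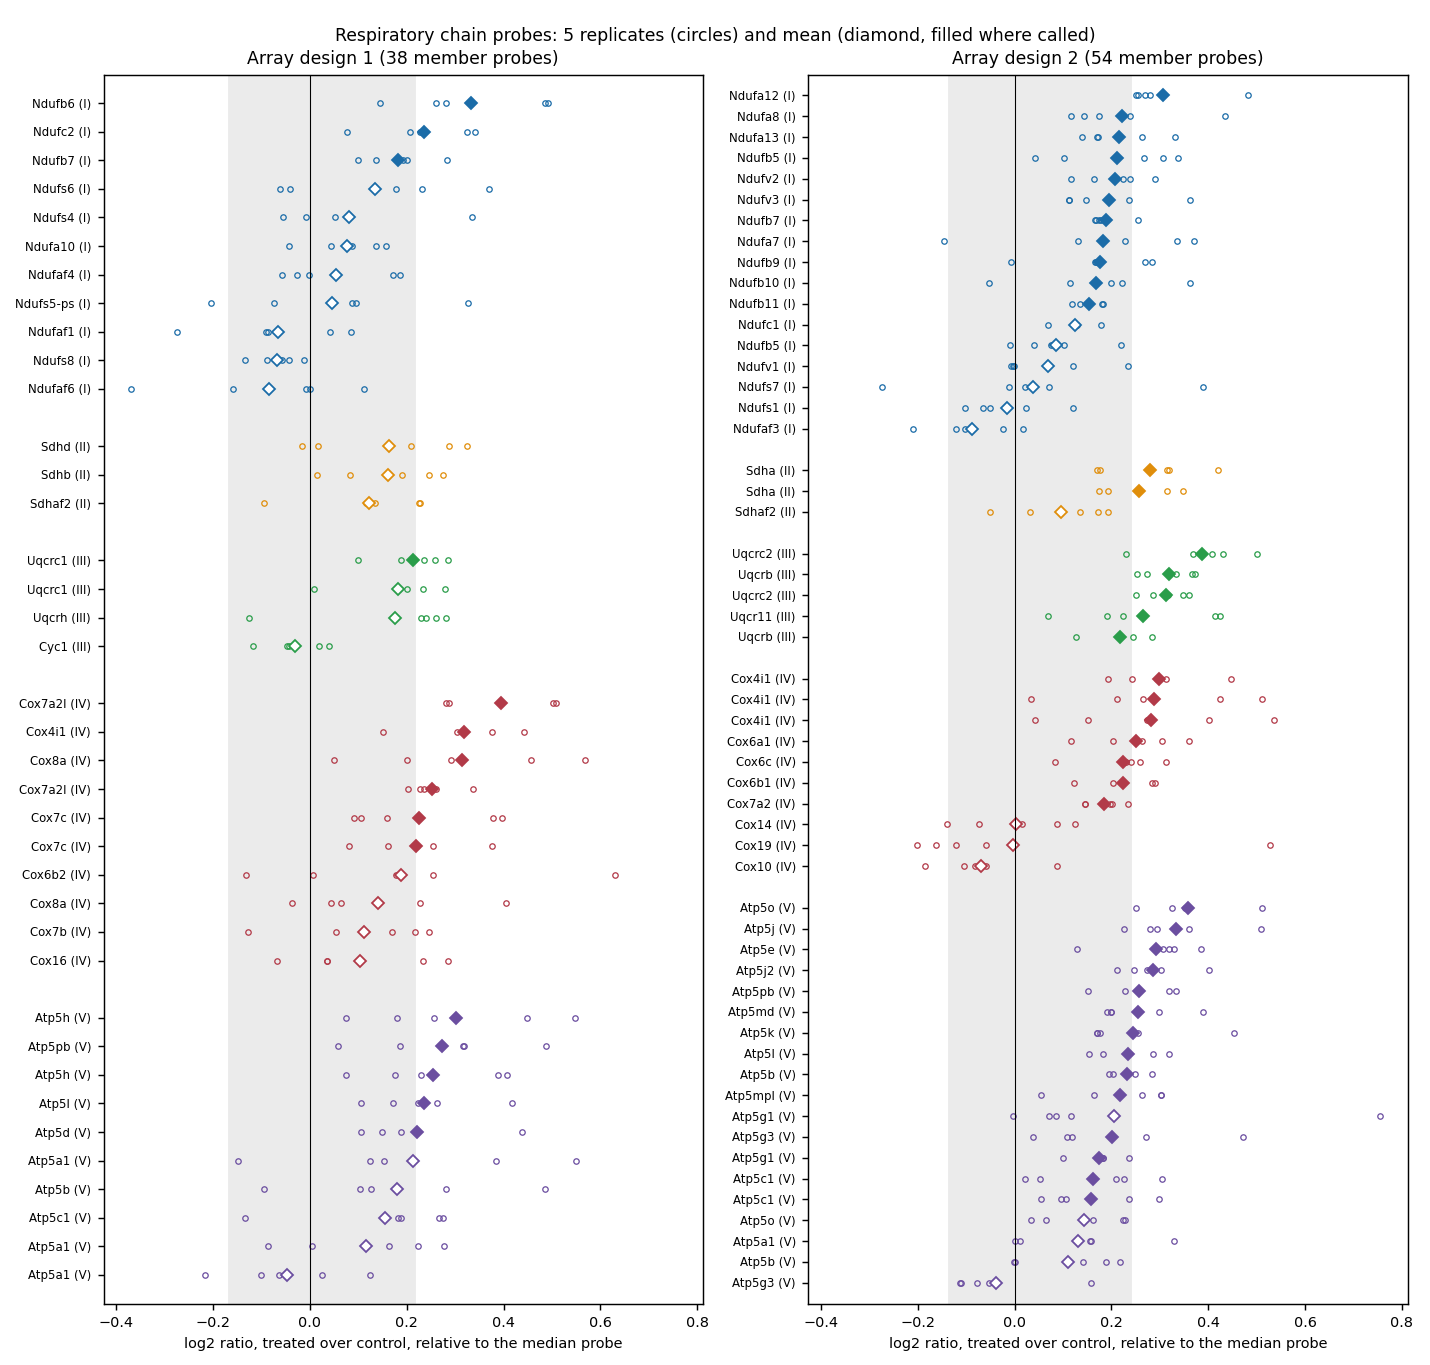
Every member probe on each array design, with 5 replicates as circles and their mean as a diamond, filled where called (adjusted p under 0.05, limma). The x axis is the log2 ratio of treated over control relative to the median probe, colours mark the complexes and the grey band runs from the 10th to the 90th percentile of the means of all probes. The 3 highest means on array design 2 belong to Uqcrc2, Atp5o and Atp5j, and none of the filled diamonds lies below 0. Without centring the member medians are −0.13 and −0.22.

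The promoters of the members were read for letters that transcription factors of respiratory genes are known to bind, because 41 of the 66 genes had a called probe. The 3 motifs were GCGCA and GCGC with any 1 base between them for NRF1, CCGGAAG for ETS factors such as GABP, and ATGGCGGC for YY1, each searched on both strands from 250 bases before to 50 bases after the start in RefSeq promoters of GRCm38.p6. None of the motifs contains another. Of the 66 genes, 55 had a promoter in the table, and 33 of them (60%) held at least 1 motif in any of their promoters, against 35.2% of 5589 other genes named on the arrays and 15.8% of 27025 genes in the table. NRF1 letters were in 21.8% of member genes and 12.8% of the other named genes, ETS letters in 38.2% and 21.3%, and YY1 letters in 12.7% and 6.3%. Among member genes, 57.1% of those with a called probe and 65% of those with none held 1 or more. A match is no proof of binding. The 100 bases before the start are printed 5′ to 3′ for 6 genes, with the motif letters in capitals. Sdha (minus strand of chr13:74350241-74350340), Ndufa8 (minus strand of chr2:36049339-36049438) and Atp5j (minus strand of chr16:84834977-84835076) are shown because their probes were called, and Cox7a2l (minus strand of chr17:83514334-83514433) because it was called and has no such letters. Ndufaf1 (minus strand of chr2:119662835-119662934) and Sdhd (minus strand of chr9:50603850-50603949) hold motifs and were not called.
Sdha: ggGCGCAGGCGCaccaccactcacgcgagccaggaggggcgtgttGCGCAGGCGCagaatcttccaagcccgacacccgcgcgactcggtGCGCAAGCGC
Ndufa8: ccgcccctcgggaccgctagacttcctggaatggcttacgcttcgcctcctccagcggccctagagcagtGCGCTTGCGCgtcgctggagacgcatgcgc
Atp5j: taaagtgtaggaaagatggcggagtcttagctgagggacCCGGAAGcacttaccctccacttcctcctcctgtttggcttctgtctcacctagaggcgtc
Cox7a2l: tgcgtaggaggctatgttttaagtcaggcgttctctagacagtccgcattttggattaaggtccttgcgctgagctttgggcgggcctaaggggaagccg
Ndufaf1: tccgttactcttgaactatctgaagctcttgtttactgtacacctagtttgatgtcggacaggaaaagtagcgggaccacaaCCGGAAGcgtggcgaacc
Sdhd: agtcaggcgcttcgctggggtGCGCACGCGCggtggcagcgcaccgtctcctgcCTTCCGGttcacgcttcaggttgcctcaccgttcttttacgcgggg
The promoter of Sdha holds the NRF1 letters 3 times within these 100 bases, and that of Sdhd holds both NRF1 and ETS letters. Atp5j has a second promoter in the table, on the minus strand of chr16:84835626-84835725, in which none of the letters were found.

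Complex I was measured by 11 probes on array design 1, of which 3 rose, and by 17 on array design 2, of which 11 rose. The shares of all probes called higher were 10.2% and 19.8%. Accessory subunits, which surround the electron-carrying core, made up nearly all calls of complex I. They were called on 3 of 6 probes of array design 1 and on 10 of 12 of array design 2. Ndufa12 gave log2 ratios of 0.48, 0.27, 0.28, 0.25 and 0.26 in replicates 1 to 5 on array design 2, a mean of 0.31 ± 0.10 (SD, n = 5), or 1.24-fold (adjusted p = 0.000204, limma). Replicate 1 stood above the other 4, which were nearly equal. The orientations of Ndufa12 were far apart, at 0.80 with treated embryos in channel 1 and −0.18 with them in channel 2. Ndufb6, the highest of complex I on array design 1, gave 0.28, 0.26, 0.15, 0.49 and 0.49 in replicates 1 to 5 and a mean of 0.33 ± 0.15 (adjusted p = 0.00695, limma). All 5 replicates were above 0, and replicates 4 and 5 were the highest. Ndufc2 followed on that design with 0.21, 0.077, 0.23, 0.34 and 0.32 and a mean of 0.24 ± 0.11 (adjusted p = 0.0217, limma).

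Ndufb7 was called on both designs. It gave 0.10, 0.28, 0.19, 0.20 and 0.14 in replicates 1 to 5 on array design 1 and 0.25, 0.18, 0.17, 0.17 and 0.17 on array design 2, with means of 0.18 ± 0.070 and 0.19 ± 0.038 (adjusted p = 0.044 and 0.0101, limma). The means were alike, but the probe on array design 1 had a dye part of 0.45, and read 0.64 with treated embryos in channel 1 and −0.27 with them in channel 2. The further accessory subunits called on array design 2 were Ndufa8 (0.22), Ndufa13 (0.22), Ndufb5 on 1 of its probes (0.21), Ndufv3 (0.19), Ndufa7 (0.18), Ndufb9 (0.18), Ndufb10 (0.17) and Ndufb11 (0.15). In channels 1 and 2, Ndufb10 read 0.75 and −0.42, this Ndufb5 probe 0.59 and −0.17, Ndufa13 0.57 and −0.14, and Ndufv3 0.46 and −0.067. The orientations of Ndufa8, Ndufa7, Ndufb9 and Ndufb11 were all above 0. Ndufa7, Ndufb9 and Ndufb10 were above 0 in 4 of 5 replicates. Not called were Ndufc1 on array design 2 and Ndufs6, Ndufs4 and Ndufa10 on array design 1, with means between 0.076 and 0.13.

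The core subunits of complex I hold the flavin and the iron-sulphur clusters. They were called on 0 of 1 probe of array design 1 and on 1 of 4 of array design 2. With 10.2% and 19.8% of all probes called higher, these counts are near the background and are no result about the core. Ndufv2, which carries an iron-sulphur cluster at the NADH end, rose on array design 2, with 0.29, 0.16, 0.12, 0.22 and 0.24 in replicates 1 to 5 and a mean of 0.21 ± 0.068 (adjusted p = 0.00604, limma). The other 3 core subunits on that design did not pass the test: Ndufv1, which binds NADH and the flavin, was at 0.069 ± 0.11, Ndufs7 at 0.039 ± 0.24 and Ndufs1 at −0.015 ± 0.089. Ndufs8, the only core subunit on array design 1, was at −0.067 ± 0.047, and its 5 replicates ran from −0.13 to −0.012, all below 0. Whether core and accessory subunits differ was not tested.

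The assembly factors of complex I, which help to build it and are not part of the finished enzyme, lay between −0.088 and 0.054. Ndufaf3 was at −0.088 ± 0.088 on array design 2, and Ndufaf1, Ndufaf4 and Ndufaf6 were at −0.065 ± 0.14, 0.054 ± 0.12 and −0.085 ± 0.19 on array design 1. The replicates of Ndufaf6 were −0.00076, 0.11, −0.37, −0.16 and −0.0072, with 1 above 0 and 4 at or below it. None passed the test. With 10.2% and 19.8% of all probes called higher, this is near the background and is no result about these factors. Ndufs5-ps is annotated as a pseudogene of an accessory subunit, so its probe cannot be told apart from one that reads the parent gene. It was at 0.045 ± 0.20, with a dye part of 0.82, the highest of all members.

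Complex II had 3 probes on each design, with 0 called on array design 1 and 2 on array design 2. Against 10.2% and 19.8% of all probes, counts on 3 probes are no result about this complex. Both called probes belong to Sdha, the flavoprotein that oxidises succinate. One probe gave 0.31, 0.42, 0.17, 0.32 and 0.18 in replicates 1 to 5 with a mean of 0.28 ± 0.11, and the other 0.32, 0.26, 0.35, 0.19 and 0.17 with a mean of 0.26 ± 0.075 (adjusted p = 0.000589 and 0.000967, limma). All 10 values were above 0. With treated embryos in channels 1 and 2, the first probe read 0.72 and −0.16 and the other 0.21 and 0.30. Sdhb, the iron-sulphur subunit, was at 0.16 ± 0.11 with replicates of 0.25, 0.014, 0.084, 0.28 and 0.19, all above 0, and Sdhd, a membrane anchor, was at 0.16 ± 0.16 with 0.21, −0.017, 0.016, 0.32 and 0.29. Neither was called on array design 1 (adjusted p = 0.075 and 0.0914, limma). Sdhaf2, which helps to attach the flavin to Sdha, had a probe on each design, at 0.12 ± 0.13 and 0.10 ± 0.10, and neither was called.

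Complex III had the highest median on array design 2, at 0.31, and all 5 of its probes there rose, against 19.8% of all probes. Uqcrc2, one of the large core proteins that face the matrix, was read by 2 probes. The higher gave 0.50, 0.41, 0.23, 0.37 and 0.43 in replicates 1 to 5 and a mean of 0.39 ± 0.10, or 1.31-fold (adjusted p = 1.71e-05, limma), and the other 0.35, 0.36, 0.29, 0.32 and 0.25 and 0.31 ± 0.045 (adjusted p = 9.97e-05, limma). The lowest of these 10 values was 0.23. The orientations of the higher probe were far apart, at −0.15 with treated embryos in channel 1 and 0.93 with them in channel 2, while those of the other were at 0.21 and 0.42.

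Uqcrb, a small subunit near the ubiquinone pocket, rose on both of its probes, with 0.37, 0.33, 0.27, 0.25 and 0.37 and a mean of 0.32 ± 0.054 on one, and 0.22, 0.13, 0.28, 0.22 and 0.24 and 0.22 ± 0.058 on the other (adjusted p = 8.14e-05 and 0.00376, limma). The small subunit Uqcr11 gave 0.42, 0.41, 0.19, 0.22 and 0.069, higher in replicates 1 and 2 than in the other 3, and a mean of 0.26 ± 0.15 (adjusted p = 0.00194, limma). On array design 1, 1 of 4 probes was called, against 10.2% of all probes, which is no result about the complex. Uqcrc1, the other large core protein, gave 0.10, 0.26, 0.19, 0.24 and 0.29 on the called probe and 0.18, 0.20, 0.28, 0.23 and 0.0080 on the other, with means of 0.21 ± 0.073 and 0.18 ± 0.10 (adjusted p = 0.026 and 0.0522, limma). These are nearly the same level on either side of the threshold. In channels 1 and 2, the called Uqcrc1 probe read 0.60 and −0.17 and the other 0.75 and −0.38. Uqcrh, the hinge protein that binds cytochrome c1, was at 0.18 ± 0.17, above 0 in 4 of 5 replicates and not called. Cyc1, cytochrome c1 itself and the only redox subunit measured for this complex, was at −0.030 ± 0.062 with replicates of 0.018, −0.047, −0.12, −0.044 and 0.039, on both sides of 0.

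**Figure D2:**
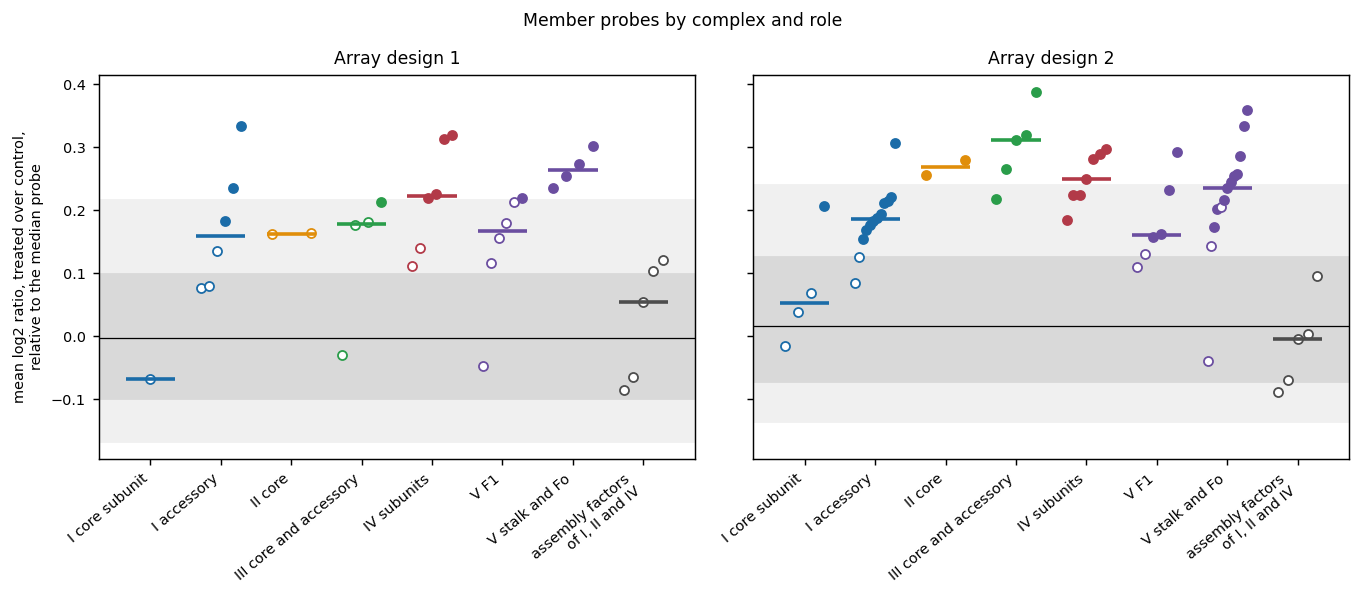
Mean log2 ratio of treated over control of each member probe by complex and role, with bars at the group medians and filled points where called (limma). Grey bands run from the 25th to the 75th and from the 10th to the 90th percentile of all probes and the black line is their median, and Cox7a2l, Cox6b2 and Ndufs5-ps are not drawn. The highest points drawn are Ndufb6 of complex I (0.33) on array design 1 and Uqcrc2 of complex III (0.39) on array design 2. The 5 assembly factors on each design lie between −0.09 and 0.12. None is called, where 10.2% and 19.8% of all probes were called higher. Values are relative to the median probe.

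Complex IV is cytochrome c oxidase, and its nuclear subunits surround a catalytic core made from mitochondrial DNA. Its structural subunits rose on all 7 probes of array design 2, against 19.8% of all probes. On array design 1 they rose on 4 of 6, against 10.2%. Cox4i1, the largest of these subunits, was called on all 4 of its probes over both designs. On array design 1 it gave 0.32, 0.30, 0.15, 0.44 and 0.38 in replicates 1 to 5 and a mean of 0.32 ± 0.11 (adjusted p = 0.00588, limma). On array design 2 its probes had means of 0.30 ± 0.10, 0.29 ± 0.19 and 0.28 ± 0.20 (adjusted p = 0.000275, 0.0015 and 0.0022, limma). The last of these probes gave 0.54, 0.40, 0.27, 0.15 and 0.042, so replicate 1 was high and replicate 5 close to 0, whereas the first kept every replicate at 0.19 or more.

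Cox6a1 followed with 0.36, 0.30, 0.20, 0.12 and 0.26 in replicates 1 to 5 and a mean of 0.25 ± 0.094 (adjusted p = 0.00153, limma). Cox6b1, which lies on the side of cytochrome c, Cox6c and Cox7a2 were at 0.22, 0.22 and 0.18, all called. With treated embryos in channel 1 these 3 read −0.026, −0.011 and −0.0065, and with them in channel 2 they read 0.47, 0.46 and 0.38. Cox6a1 read 0.31 and 0.19. On array design 1 both Cox7c probes rose, at 0.23 ± 0.15 and 0.22 ± 0.11 (adjusted p = 0.0337 and 0.0292, limma). The probes of Cox8a disagreed in the call. One gave 0.050, 0.29, 0.20, 0.46 and 0.57 and a mean of 0.31 ± 0.20, called (adjusted p = 0.0153, limma), and the other 0.044, 0.064, 0.23, 0.40 and −0.038 and 0.14 ± 0.18, not called. In both, replicate 4 was high, and replicate 5 was the highest in one and the lowest in the other. Cox7b (0.11 ± 0.15) and the testis form Cox6b2 (0.19 ± 0.29, from −0.13 to 0.63) were not called.

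Cox7a2l, a relative of Cox7a2 that joins complexes III and IV into a supercomplex, was the highest member on array design 1. Its probes gave 0.39, 0.28, 0.29, 0.50 and 0.51 and 0.23, 0.20, 0.24, 0.26 and 0.34 in replicates 1 to 5, with means of 0.39 ± 0.11 and 0.25 ± 0.052, or 1.31-fold and 1.19-fold (adjusted p = 0.00209 and 0.012, limma). Every value was at 0.20 or above. Its orientations lay close together, at 0.34 and 0.45 for the first probe and 0.25 and 0.26 for the other.

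Assembly factors of complex IV were not called. Cox10, which makes the heme A precursor, was at −0.069 ± 0.10, Cox14 at 0.0030 ± 0.11 and Cox19, a copper-handling protein, at −0.0036 ± 0.30 on array design 2. Cox19 gave −0.20, −0.16, 0.53, −0.060 and −0.12, with replicate 3 far above the other 4, all of which were below 0. Cox16 was at 0.10 ± 0.15 on array design 1. Over complexes I, II and IV, 0 of 5 assembly factor probes were called on each design, with medians of 0.05 and −0.0036, and 0 of them on either design reached an unadjusted p under 0.05 in limma. With 10.2% and 19.8% of all probes called higher, 0 of 5 is near the background and is no result about the assembly factors. Structural subunits were called on 13 of 29 and 39 of 49 probes. Whether the groups differ was not tested.

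Complex V gave 5 calls on 10 probes of array design 1 and 14 on 19 of array design 2, against 10.2% and 19.8% of all probes. In the peripheral stalk and Fo, which hold the head in place and carry protons, 4 of 4 and 10 of 13 probes rose. Atp5o, which joins the stalk to the head, was highest on one of its probes, with 0.51, 0.36, 0.25, 0.32 and 0.35 in replicates 1 to 5 and a mean of 0.36 ± 0.095, or 1.28-fold (adjusted p = 3.53e-05, limma). Its other probe gave 0.23, 0.034, 0.065, 0.16 and 0.22 and 0.14 ± 0.089 and just missed the threshold (adjusted p = 0.0512, limma). Both were above 0 in every replicate, with replicate 1 the highest. Atp5j, the stalk protein also called coupling factor 6, gave 0.51, 0.36, 0.23, 0.28 and 0.29 and a mean of 0.33 ± 0.11 (adjusted p = 9.84e-05, limma). Its orientations were alike, at 0.36 and 0.30.

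The stalk subunits Atp5pb and Atp5h and the Fo subunit Atp5l were called on every probe. Atp5h gave 0.26, 0.18, 0.074, 0.45 and 0.55 on one probe and 0.23, 0.18, 0.074, 0.39 and 0.41 on the other, with means of 0.30 ± 0.19 and 0.26 ± 0.14 (adjusted p = 0.0163 and 0.0205, limma). The order of the replicates was the same in both, with 5 the highest and 3 the lowest. Atp5pb gave 0.32, 0.19, 0.059, 0.32 and 0.49 on array design 1 and 0.33, 0.23, 0.15, 0.26 and 0.32 on array design 2, with means of 0.27 ± 0.16 and 0.26 ± 0.073 (adjusted p = 0.0178 and 0.000919, limma). For Atp5l the means were 0.24 ± 0.12 and 0.23 ± 0.068 (adjusted p = 0.0229 and 0.00211, limma). Atp5pb and Atp5l, with Cox4i1 and Ndufb7, were the 4 of 8 genes measured on both designs that were called on each. The small Fo subunits Atp5j2 (0.29), Atp5md (0.25), Atp5k (0.25) and Atp5mpl (0.22) rose as well. In channels 1 and 2, Atp5md read −0.054 and 0.56 and Atp5mpl −0.048 and 0.48. Atp5j2 and Atp5k were above 0 in both.

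Subunit c, the ring that turns in the membrane, is made from several genes with the same mature protein, and their probes did not agree. Atp5g1 gave 0.24, 0.17, 0.10, 0.18 and 0.18 on one probe, called at 0.17 ± 0.049 (adjusted p = 0.0171, limma), and 0.12, 0.071, 0.76, 0.086 and −0.0037 on the other, not called at 0.20 ± 0.31. Replicate 3 alone was high on the second probe. Atp5g3 was called at 0.20 ± 0.17 on one probe and stood at −0.039 ± 0.11 on the other, where 4 of 5 replicates were below 0. Whether these probes read more than 1 gene of the family was not tested, so their values are uncertain.

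In the F1 head, which holds the catalytic sites, 1 of 6 probes rose on array design 1 and 4 of 6 on array design 2. Against 10.2% and 19.8% of all probes, the 1 of 6 is near the background and is no result about the head. Atp5e, the epsilon subunit, was the highest, with 0.32, 0.33, 0.38, 0.13 and 0.31 in replicates 1 to 5 and a mean of 0.29 ± 0.10 (adjusted p = 0.00033, limma). Atp5b, the catalytic beta subunit, rose on one probe of array design 2 with 0.28, 0.25, 0.20, 0.20 and 0.23 and a mean of 0.23 ± 0.036 (adjusted p = 0.00186, limma), but was not called at 0.11 ± 0.10 on the other or at 0.18 ± 0.22 on array design 1. Atp5c1, the gamma subunit that turns inside the head, was called on both probes of array design 2, at 0.16 and 0.16, and not on array design 1, at 0.16 ± 0.17. Atp5d, the delta subunit, was called at 0.22 ± 0.13 (adjusted p = 0.0328, limma), but read 0.52 in channel 1 and −0.077 in channel 2. Atp5a1, the alpha subunit, was called on none of 4 probes, with means of −0.046, 0.21 and 0.12 on array design 1 and 0.13 on array design 2. Its first 2 probes did not share a sign, and the replicates of the second ran from −0.15 to 0.55.

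Of the 20 member genes with several probes, 10 were called on all of them, 8 on some and 2 on none, these last being Atp5a1 and Sdhaf2. Over all members 41 genes had a called probe and 25 had none.

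**Figure D3:**
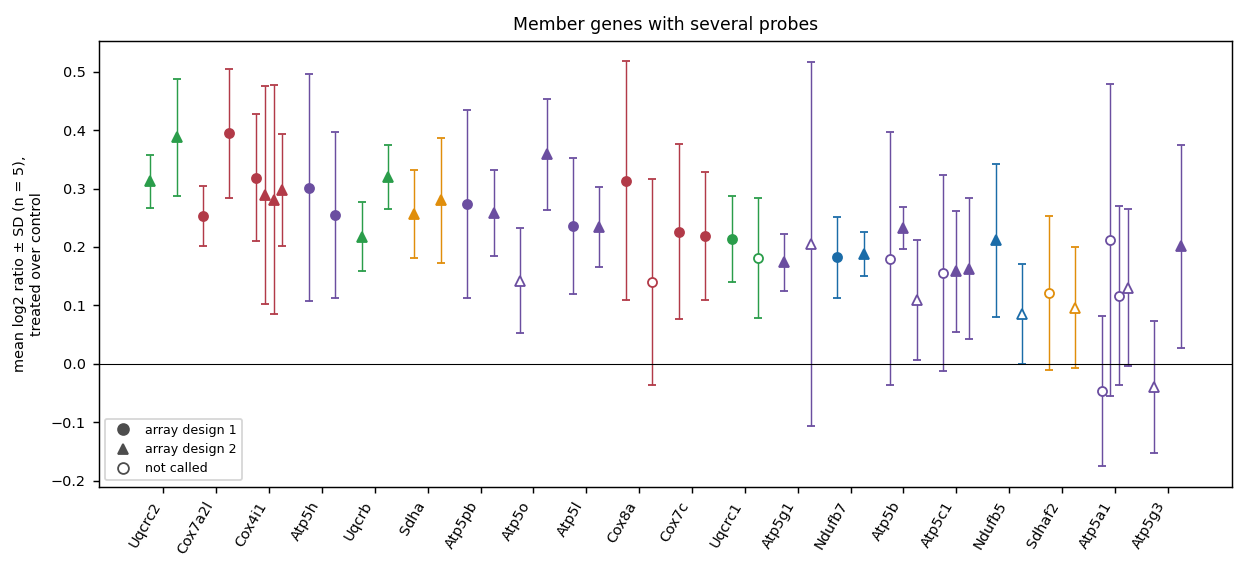
Member genes with more than 1 probe, in order of their mean. Each point is the mean log2 ratio of treated over control of a probe with its SD over 5 replicates, circles for array design 1, triangles for array design 2, open where not called (limma). The 4 probes of Cox4i1 lie between 0.28 and 0.32, while the probes of Atp5g3 and Atp5a1 span 0; all values are relative to the median probe.

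For some members the 2 dye orientations of the arrays gave ratios far apart. The dye part, the mean of both orientations without turning the swapped one, ran from −0.30 to 0.82 over the members of array design 1 and from −0.54 to 0.59 on array design 2. It was called in limma for 4 members on array design 1, where 16.8% of all probes were called, and for 0 on array design 2, where 0% were and 8 members had an unadjusted p under 0.05. The 4 were Ndufs5-ps, Ndufb7, one Uqcrc1 probe and Atp5c1. Both orientations were above 0 for 21 of 38 and 29 of 54 member probes, against 17.5% and 20.7% of all probes. Of the called members it was 10 of 15 and 24 of 39. With treated embryos in channel 1 alone the member medians were 0.16 and 0.17, and with them in channel 2 alone 0.10 and 0.23. In channel 1 alone 8 and 6 members were called higher in limma, against 15.9% and 9.33% of all probes, and in channel 2 alone 5 and 1, against 5.73% and 1.39%. Since each replicate averages both, a dye effect that is equal in both orientations cancels in the values above.

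**Figure D4:**
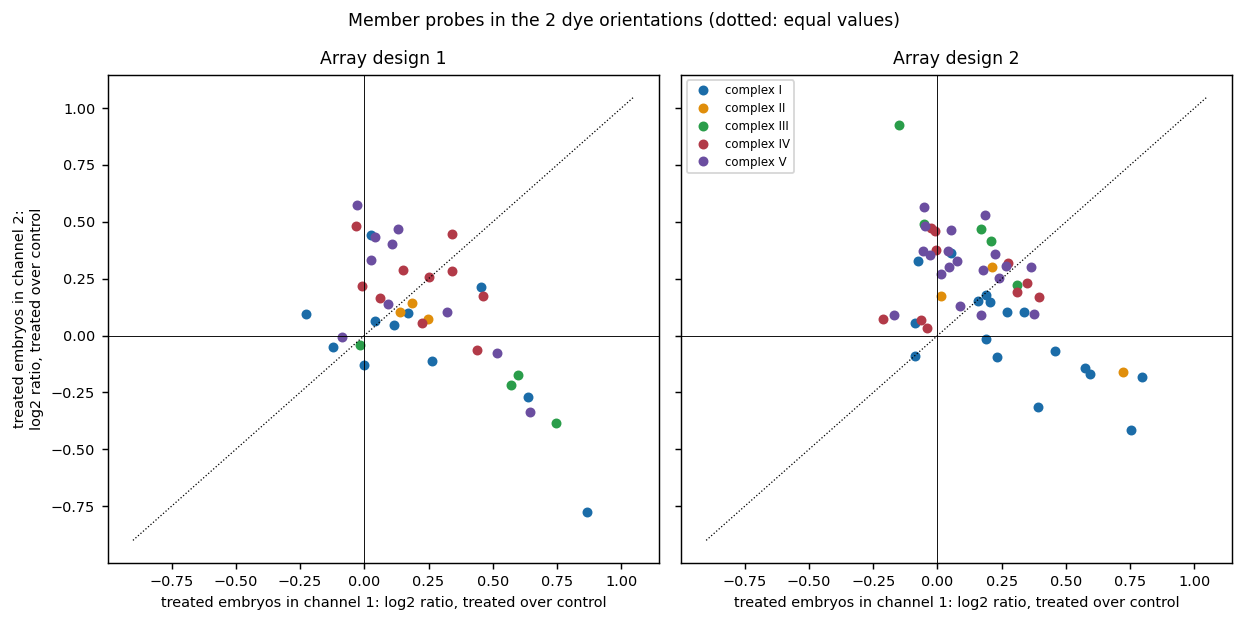
Each member probe by its mean log2 ratio of treated over control with treated embryos in channel 1 (x axis) and in channel 2 (y axis), coloured by complex, with a dotted line where they are equal. Points in the upper right quadrant (21 of 38 on array design 1 and 29 of 54 on array design 2) are above 0 in both, and points far from the line, such as one Uqcrc2 probe at −0.15 and 0.93, differ strongly between the orientations.

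A probe's treatment value also went with its dye profile, that is, with the pattern of its dye part over the 5 replicates. A smooth curve over this profile accounted for 34.4% to 74% of the variance between probes in single replicates of array design 1 and for 35.3% to 61.6% in those of array design 2. With the curve removed, the member medians were 0.014 and 0.067, and 1 and 6 members were called higher, against 0.977% and 3.15% of all probes. The 7 were Cox7a2l on array design 1 (0.20), and Uqcrb (0.18), Atp5j (0.17), Sdha (0.17), Cox4i1 (0.15), Ndufa8 (0.15) and Uqcrc2 (0.15), each on 1 probe of array design 2, with adjusted p from 0.0203 to 0.0492 in limma. They include at least 1 probe of each complex, and each value was smaller than before the removal. No other probe of these genes was called after it. The other probe was at 0.022 for Sdha, 0.033 for Uqcrc2, 0.064 for Uqcrb and 0.10 for Cox7a2l. The others of Cox4i1 were at 0.11 on array design 1 and at 0.12 and 0.092 on array design 2. The part of the dye profile in the other calls was not tested.

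**Figure D5:**
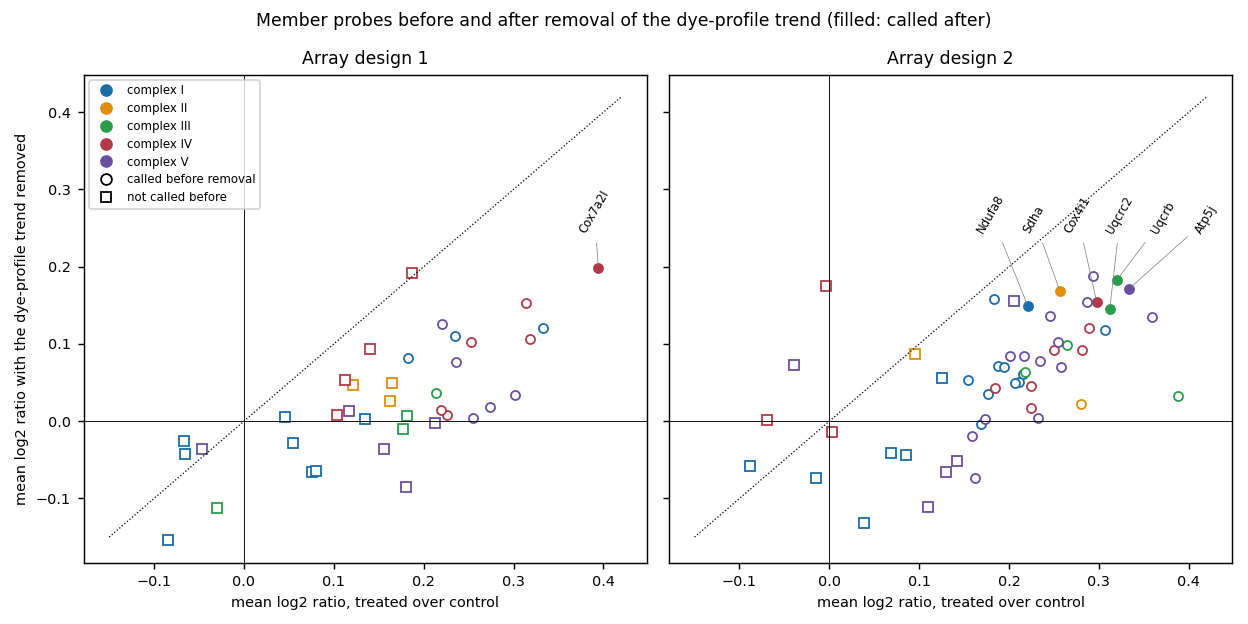
Mean log2 ratio of each member probe before (x axis) and after (y axis) the dye-profile curve was removed, by complex, as circles where called before and squares where not, filled and named where called after. Most points lie below the dotted line of equal values, and 1 member on array design 1 and 6 on array design 2 are filled; values are relative to the median probe.

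Slides came from 2 number series in the labels, 2000 and 3000, with 2 and 3 replicates on array design 1 and 3 and 2 on array design 2. No member differed between the series at an adjusted p under 0.05 in limma, where 0.013% and 0% of all probes did, and 1 and 3 members had an unadjusted p under 0.05. Within series 2000, 0 and 33 members were called, and within series 3000, 2 and 17. With a term for the series the calls were 9 and 40. Of all probes 0.768% and 20.2% were called higher within series 2000, 3.65% and 9.99% within series 3000, and 6.34% and 19.2% with the term. Atp5h on array design 1, for example, was at 0.22 within series 2000 and 0.36 within series 3000, and Cox4i1 on one probe of array design 2 at 0.40 and 0.10.

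Other mitochondrial genes gave a mixed picture. Carriers and membrane proteins were called higher for 2 of 7 genes on array design 1 and 5 of 8 on array design 2, with gene values taken as the mean of their probes and 11.1% and 21.8% of all genes called higher and 4.25% and 7.56% lower. Slc25a3, which imports the phosphate that complex V uses, was at 0.41 ± 0.050 on array design 2, with 0.42, 0.48, 0.42, 0.38 and 0.35 in replicates 1 to 5 (adjusted p = 1.06e-06, limma), and at 0.048 ± 0.16 on array design 1, not called. The outer membrane channel Vdac1 rose on both, at 0.28 ± 0.18 and 0.30 ± 0.050 (adjusted p = 0.0164 and 7.07e-05, limma), and Vdac3 on array design 2 at 0.37 ± 0.089. Slc25a5, an ADP and ATP exchanger, was called at 0.26 ± 0.21 on array design 1 and not called at −0.061 ± 0.045 on array design 2. Taken per gene in the same way, 12 of 31 members on array design 1 and 32 of 43 on array design 2 were called.

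Enzymes of the citric acid cycle and pyruvate dehydrogenase, which supply the chain with NADH, gave 1 call of 10 on array design 1, Cs at 0.25 ± 0.16, and on array design 2 a single lower call of 12, Suclg2 at −0.15 ± 0.10 (adjusted p = 0.0193 and 0.0313, limma). Assembly factors outside the rule were called for 0 of 3 and 5 of 10 genes, led by Coa5 (0.26) and Uqcc2 (0.20). Coenzyme Q enzymes gave 0 of 4 and 1 of 4, Coq9 at 0.14. Regulators of mitochondrial biogenesis gave 1 lower call of 6 on array design 1, Ppargc1b at −0.27 ± 0.15 (adjusted p = 0.0157, limma), and 0 of 6 on array design 2. Nrf1, whose motif was counted above, was at 0.0085 ± 0.086 and not called. Mitochondrial chaperones and proteases gave 1 of 3 and 1 of 4, Hspd1 at 0.41 ± 0.22 and Hspa9 at 0.23 ± 0.052. Over all genes 11.1% and 21.8% were called higher and 4.25% and 7.56% lower. Single calls on so few genes lie near these shares and are no result about the lists.

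Among markers of red blood cells, only globins were called in the same direction on array design 2. Of 5 measured, 3 globins rose, Hbb-y at 0.61 ± 0.21, Hba-x at 0.58 ± 0.23 and Hbb-b1 at 0.39 ± 0.17 (adjusted p = 5.95e-08, 1.67e-07 and 1.08e-05, limma), while Alas2 (−0.0018 ± 0.12) and Slc4a1 (0.11 ± 0.12) were not called. In replicates 1 to 5 Hbb-y gave 0.35, 0.57, 0.82, 0.48 and 0.84, Hba-x gave 0.44, 0.47, 0.84, 0.34 and 0.80 and Hbb-b1 gave 0.29, 0.69, 0.40, 0.30 and 0.29. All of these values were above 0, and the 3 globins were highest in different replicates. With the dye-profile curve removed the 3 means were 0.33, 0.23 and 0.19. Only Hbb-y was then called (adjusted p = 0.0145, 0.0693 and 0.0855, limma). On array design 1 the only red cell marker was Gata1, at −0.10 ± 0.10 and not called. Visceral endoderm markers gave 1 higher and 1 lower call of 5 on array design 1, Dab2 (0.20) and Apob (−0.20), and 0 of 1 on array design 2. That 1 was again Dab2, at −0.044. Placental and decidual markers gave 1 higher, Krt8 (0.19), and 1 lower, Prl8a2 (−0.23), of 3, and 0 of 2. Of heart and muscle markers 1 was measured, Nppb at 0.062 ± 0.18, not called. With 11.1% and 21.8% of all genes called higher and 4.25% and 7.56% lower, single calls among so few markers are no result about them. The part of any of these cell types in the values of the members was not tested, and ratios hold no level against which the labelled tissue could be checked.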

How the data were processed

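The authors deposited 2 tables of log ratios, 1 for each array design, with 20 arrays each. Base 2 is an assumption. It rests on the low tail of 1 readout, the one left out for its missing values. Below −3, −4 and −5 this tail had a mean excess of 1.46, 1.53 and 1.74, against 1.44 for log2 and 1.0 for natural logarithms. Each fold assumes log2 values as the deposited unit. How the arrays were scanned, background-corrected and normalized, and which channel is the numerator, is not given in the sources, and array medians in the deposited tables ran from −1.73 to 1.69. No intensities were used here, so nothing is known of signal over background.

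Probes were named through the platform annotation. The treated channel, replicate and slide were taken from the labels. Each array was centred on its median, 1 readout with over 5% missing values was left out, spots of one accession were averaged (7680 and 7599 probes), readouts were averaged per slide, and the swapped orientation was turned. The mean of both orientations gave 1 value per replicate. Where 3 or more replicates had a value, the mean was set against 0 by a two-sided moderated test in limma (version 3.58.1, R 4.3.3; lmFit and eBayes), separately by design, with Benjamini-Hochberg adjustment over all probes and a threshold of 0.05. The dye-profile curve was fitted with mgcv 1.9.3 on 3 principal components of the dye values. The fits were tested on simulated data.

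The members, gene lists and tests were chosen with earlier results of these data known. Named are called probes with one sign in all replicates (at most the 30 with the largest mean), the highest and lowest probe of each complex, genes with several probes, and up to 2 genes per list; others were named to account for every member. Alternatives were no centring, scaling, missing-value rules, single readouts, orientations and slide series, other variance models, trend removal and leaving out each replicate.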

Additional observations from a re-analysis of the deposited data

Results flagged for a closer look

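Of the 62 probes that the rule for names had chosen, 5 had a single replicate apart from the other 4. The measure was its gap to the nearest value over the whole range (above 0.71). Chance flags about 1 in 20 groups. On array design 1 this was replicate 1 of Atp5c1, at −0.13 where the other 4 were above 0. On array design 2 replicate 1 was apart for Ndufa12, at 0.48, and for Ndufb7, at 0.25, in both cases above the rest. Replicate 3 of one Atp5g1 probe was at 0.76, and replicate 5 of one Atp5g3 probe was at 0.16, where the other 4 were below 0. Ndufa12 kept its call without replicate 1 (adjusted p = 0.00308, limma), as did Ndufb7 (adjusted p = 0.0357, limma). Members outside that choice were not screened in this way. Among them were Cox19, with replicate 3 at 0.53, and Uqcrh, with replicate 1 at −0.13.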

How the results depend on the processing

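Calls on array design 1 (15 higher, 0 lower) depended on the processing. They became 0 with B readouts alone, without moderation of the variances or within slide series 2000 (9, 18 and 9 at an unadjusted p under 0.05 in limma), 2 within series 3000 and 9 with a term for the series. They were 6 with plain readouts, 8 and 5 with treated embryos in channel 1 and 2 alone (with 1 lower in channel 2), 3 at a threshold of 0.01, and 1 with the poor readout kept or with the dye-profile trend removed. Leaving out each replicate in turn gave 1 to 15 calls, the 1 without replicate 4, and 1 probe, of Cox7a2l, was called in all 5 of these fits. On array design 2 (39 higher, 0 lower) the calls became 17 within series 3000, 6 and 1 with treated embryos in channel 1 and 2 alone, and 6 with the trend removed. Leaving out each replicate gave 29 to 39, and 29 probes were called in all 5 fits. Without centring 0 were higher and 15 and 28 lower. Single arrays with a replicate block gave 14 and 42 calls. The cause of these changes was not tested. The median over all members moved to 0.10 on array design 1 with treated embryos in channel 2 alone, and to 0.014 and 0.067 with the trend removed. Without centring it was −0.13 and −0.22, and complexes I to V had medians of −0.24, −0.15, −0.13, −0.090 and −0.10 on array design 1 and −0.25, −0.17, −0.12, −0.20 and −0.21 on array design 2. Over all members 29 and 49 probes then changed sign, 11 and 39 of them called. Those that the rule for names had chosen were Ndufb7 −0.13, Ndufc2 −0.078, Sdhaf2 −0.19, Sdhd −0.15, Uqcrc1 −0.10 and −0.13, Cox16 −0.21, Cox7a2l −0.060, Cox7c −0.087 and −0.094, Cox8a −0.17, Atp5a1 −0.10 and −0.20, Atp5b −0.13, Atp5c1 −0.16, Atp5h −0.012 and −0.058, Atp5l −0.077 and Atp5pb −0.040 on array design 1. On array design 2 they were Ndufa12 −0.12, Ndufb5 −0.22 and −0.34, Ndufb7 −0.24, Sdha −0.17 and −0.15, Sdhaf2 −0.33, Uqcr11 −0.16, Uqcrb −0.21 and −0.11, Uqcrc2 −0.12 and −0.042, Cox4i1 −0.14, −0.15 and −0.13, Cox6a1 −0.18, Atp5a1 −0.30, Atp5b −0.20 and −0.32, Atp5c1 −0.27 and −0.27, Atp5e −0.14, Atp5g1 −0.26 and −0.22, Atp5g3 −0.23, Atp5j −0.10, Atp5j2 −0.14, Atp5k −0.18, Atp5l −0.19, Atp5md −0.17, Atp5o −0.29 and −0.071 and Atp5pb −0.17. With treated embryos in channel 1 alone, 3 and 11 members changed sign, and 10 and 13 with them in channel 2 alone (2 and 9, and 3 and 6, of them called). Those chosen were, in channel 1 alone, Cox16 −0.010, Cox7c −0.031 and Atp5pb −0.029 on array design 1, and Uqcrb −0.054, Uqcrc2 −0.15, Atp5c1 −0.055 and −0.029 and Atp5md −0.054 and the median of complex IV (−0.0086) on array design 2. In channel 2 alone they were Ndufb7 −0.27, Uqcrc1 −0.17 and −0.38 and Atp5c1 −0.33 and the median of complex III (−0.20) on array design 1, and Ndufa12 −0.18, Ndufb5 −0.17 and −0.017, Sdha −0.16, Cox10 0.075 and Atp5g3 0.091 and the median of complex I (−0.017) on array design 2. With the trend removed, complexes I and III had medians of −0.026 and −0.0020 on array design 1, 7 and 13 members changed sign (0 and 3 of them called), and those chosen were Atp5a1 −0.0026, Atp5b −0.085 and Atp5c1 −0.036 on array design 1 and Ndufb5 −0.044, Cox10 0.0021, Atp5a1 −0.066, Atp5b −0.11, Atp5c1 −0.019 and −0.074, Atp5g3 0.073 and Atp5o −0.052 on array design 2. The others chosen that changed sign, none of them called, were Ndufaf6 0.092, Cyc1 0.066 and Atp5a1 0.054 on array design 1 and Atp5g3 0.0035 on array design 2 with B readouts alone, Cyc1 0.046 with the poor readout kept, Cyc1 0.038 and Atp5a1 0.043 with a trend over probe numbers removed, Ndufaf6 0.056 and Cox16 −0.017 within series 2000 and Atp5g3 0.040 within series 3000. Ratios give no signal over background, so its limit on these values is unknown.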
